A study of Mus musculus with 18 samples.

Results

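The Nkx, Lhx, Irx, Dlx, Sox, Pou3f and Pou4f genes encode transcription factors that set cell identity in the embryo, and their chromatin was examined in macrophages, a cell type outside the lineages most of them are known for. The genes were chosen by symbol among the protein-coding autosomal genes of GENCODE vM21 on the mm10 genome, by a rule that uses no measured value of a gene. The rule gave 58 of 20807 genes, namely 14 Nkx, 8 Lhx, 6 Irx, 6 Dlx, 18 Sox and 6 Pou genes. Nkx, Lhx, Irx, Dlx and Pou proteins bind DNA through a homeodomain, to which the Lhx proteins add LIM domains and the Pou proteins a POU-specific domain. Sox proteins bind DNA through a high mobility group box.

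In cells that do not use such genes, they are textbook targets of Polycomb repressive complex 2 (PRC2), whose EZH1 and EZH2 subunits methylate lysine 27 of histone H3. The trimethylated form, H3K27me3, marks silent genes and can spread over broad domains, while acetylation of the same lysine, H3K27ac, marks active promoters and enhancers. A given lysine carries methyl groups or an acetyl group, not both. PRC2 is recruited in mammals mainly to starts that are rich in CG dinucleotides and lack active transcription.

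Bone marrow-derived macrophages (BMDM), unstimulated and grown for 7 days, came from male mice of 3 genotypes. WT mice were labelled C57BL6, mdx mice carried the mdx-4Cv mutation of Dmd, the dystrophin gene, and mdxTLR4-/- mice were mdx mice that also lacked the receptor TLR4, with the strain label Bl6/Bl10 and the sample label mTLR4 for H3K27me3. Native ChIP-seq after micrococcal nuclease digestion gave 2 ChIP libraries per genotype for H3K27me3, and for H3K27ac 2 WT, 2 mdx and 1 mdxTLR4-/- library. The authors merged replicates before calling peaks, so each mark has 1 peak list per genotype, no spread between mice can be given and no difference between genotypes was tested. The labelled ages were 12 and 13 weeks for the WT H3K27me3 libraries, 14 and 15 weeks for mdx, and 16 and 17 weeks for mdxTLR4-/-. For H3K27ac they were 19 and 20, 21 and 22, and 23 weeks in the same order. Over all 18 samples, inputs included, the labels step up in age by 1 week per library, so the ages may not be those of the mice. Taken as labelled, age and genotype cannot be told apart, and for mdxTLR4-/- BMDM neither can strain background. The paper places WT, mdx and TLR4-/- mice on the same strain background and cites earlier work for how mdxTLR4-/- mice were made. It does not mention the Bl10 part of the label of the mdxTLR4-/- samples. In such bulk libraries a mark carried by fewer cells and less of the mark per cell cannot be told apart either.

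In the order WT, mdx and mdxTLR4-/-, the H3K27me3 lists held 28143, 41780 and 36488 peaks, whose median read count was 123, 89 and 75. The H3K27ac lists held 15665, 12076 and 12493 peaks whose median was 10, 10 and 8 reads, which makes an H3K27ac peak a far thinner measurement than an H3K27me3 peak. Library depth is unknown here, and reads are given as deposited, with no input subtracted. The cell type label was checked on 12 macrophage genes, including Csf1r, the receptor for macrophage colony-stimulating factor, Spi1, the master regulator of the lineage, and Cd68. An H3K27ac peak lay within 5 kb of the start of 12 of 12 in WT, 11 of 12 in mdx and 12 of 12 in mdxTLR4-/- BMDM, with Csf1r the gene without such a peak in mdx. Those peaks held 806, 506 and 501 reads, and the most reads stood at Csf1r in WT (162), at Lyz2 in mdx (159) and at Csf1r in mdxTLR4-/- BMDM (103). Of the genes of other cells, the starts of 4 of 4 fibroblast genes (Col1a1, Col1a2, Pdgfra, Thy1) lay under H3K27me3 in all 3 genotypes with no H3K27ac. H3K27me3 lay over the start in all 3 for 3 of 4 B cell, 3 of 4 T cell, 3 of 4 muscle, 1 of 4 neutrophil and 1 of 3 erythroid genes, and 0 of the 12 macrophage genes, against 21.0% of all genes. No H3K27ac was called at the 4 neutrophil genes or the 3 erythroid genes, and the B cell gene Cd79a (11 reads), the T cell gene Cd4 (9 reads) and the muscle gene Acta1 (6 reads) had an H3K27ac peak in WT only.

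Promoters of 6 genes are printed to show the sequence before starts without and with a dense H3K27me3 peak. The first 3 belong to Sox12, Sox15 and Sox4, whose starts lay under no H3K27me3 peak in any genotype. The other 3 belong to the genes with the densest WT H3K27me3 peak over the start among those whose RefSeq and GENCODE starts lie within 50 bp of each other. Each is the 250 bases before the RefSeq start on GRCm38.p6, written 5′ to 3′ on the strand of the gene, with CG dinucleotides in capitals. The Sox12 promoter is chr2:152398047-152398296 on the minus strand, Sox15 is chr11:69654787-69655036 on the plus strand, and Sox4 is chr13:28953700-28953949 on the minus strand. Lhx1 is chr11:84525535-84525784, Sox8 is chr17:25570687-25570936 and Dlx2 is chr2:71546755-71547004, all on the minus strand.
Sox12: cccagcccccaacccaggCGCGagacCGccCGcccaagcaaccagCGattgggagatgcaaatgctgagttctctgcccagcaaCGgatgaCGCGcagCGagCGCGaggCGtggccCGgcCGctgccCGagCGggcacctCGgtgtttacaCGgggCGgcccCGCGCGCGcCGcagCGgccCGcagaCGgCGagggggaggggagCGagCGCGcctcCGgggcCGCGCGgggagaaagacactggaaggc
Sox15: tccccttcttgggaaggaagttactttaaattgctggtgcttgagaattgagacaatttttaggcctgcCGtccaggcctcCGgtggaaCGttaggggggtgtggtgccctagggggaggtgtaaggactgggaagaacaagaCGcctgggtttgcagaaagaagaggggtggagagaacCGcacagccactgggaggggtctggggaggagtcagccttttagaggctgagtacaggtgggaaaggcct
Sox4: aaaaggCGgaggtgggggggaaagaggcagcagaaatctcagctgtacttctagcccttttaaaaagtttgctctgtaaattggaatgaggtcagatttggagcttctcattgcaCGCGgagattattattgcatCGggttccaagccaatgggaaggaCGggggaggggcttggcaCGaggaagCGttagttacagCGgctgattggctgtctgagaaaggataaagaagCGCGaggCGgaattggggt
Lhx1: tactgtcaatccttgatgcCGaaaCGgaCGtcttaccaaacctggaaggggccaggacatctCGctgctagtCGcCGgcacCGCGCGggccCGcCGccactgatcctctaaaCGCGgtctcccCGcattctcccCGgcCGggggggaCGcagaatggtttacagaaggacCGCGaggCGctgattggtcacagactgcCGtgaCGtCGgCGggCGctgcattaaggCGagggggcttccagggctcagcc
Sox8: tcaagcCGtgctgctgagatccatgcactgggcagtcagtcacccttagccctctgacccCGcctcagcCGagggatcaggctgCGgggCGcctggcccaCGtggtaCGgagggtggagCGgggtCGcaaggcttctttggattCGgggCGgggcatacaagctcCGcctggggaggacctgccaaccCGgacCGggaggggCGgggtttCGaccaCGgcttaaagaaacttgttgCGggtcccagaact
Dlx2: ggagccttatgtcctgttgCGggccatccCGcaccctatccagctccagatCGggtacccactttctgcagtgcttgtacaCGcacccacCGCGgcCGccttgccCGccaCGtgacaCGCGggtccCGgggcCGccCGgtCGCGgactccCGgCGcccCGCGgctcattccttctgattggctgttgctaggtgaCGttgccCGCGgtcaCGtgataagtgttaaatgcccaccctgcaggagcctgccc

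These 250 bases held 35 CG dinucleotides at Sox12, 5 at Sox15, 11 at Sox4, 26 at Lhx1, 18 at Sox8 and 24 at Dlx2. The RefSeq start of Sox15 lies 277 bp from its GENCODE start, so its printed stretch lies further upstream than the others. RefSeq promoters were found for 40 of the 58 genes, with a median of 18 CG dinucleotides (lowest 3, highest 47), against 6 over 31396 autosomal promoters (quartiles 2 and 16). Among the 40, the letters GGGCGG, in either orientation, occurred in 25 (62.5%), against 33.0% of all promoters. CCAAT occurred in 17 (42.5% against 33.7%) and TATAAA in 1 (2.50% against 12.4%), also searched on both strands. A match shows that these letters occur and does not show binding.

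Around the GENCODE start, which all 58 genes have, CG dinucleotides were counted over 500 bp on either side and divided by the number that the C and G content would give. This ratio had a median of 0.696 over the 58 genes, 0.568 over all genes and 0.528 over the 4363 genes whose start lay under H3K27me3 in all 3 genotypes. A ratio of 0.6 or more was found for 48 of the 58 genes (82.8%), for 47.2% of all genes and for 41.3% of those 4363 genes. The H3K27me3 lists thus included many CG-poor starts outside these families. The 5 lowest ratios among the 58 were those of Lhx4 (0.0883), Sox10 (0.166), Nkx6-3 (0.262), Lhx3 (0.295) and Nkx2-6 (0.375), all of which nevertheless had the annotated start under H3K27me3. Over all genes with a ratio from 0.6 to below 0.8, the WT H3K27me3 list covered 25.3% of starts, and over the 32 of the 58 genes in that range it covered 31.

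**Figure D1:**
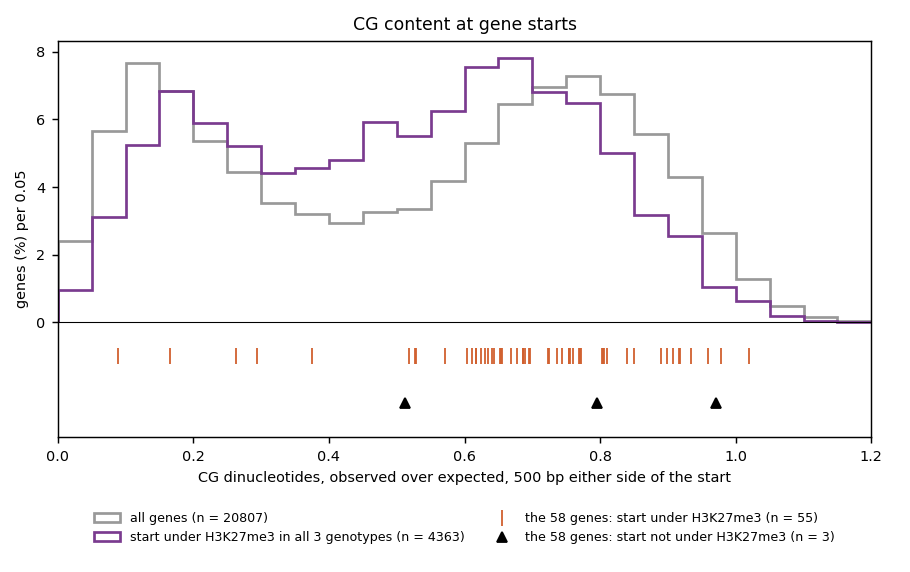
Observed over expected CG dinucleotides within 500 bp of the start (x axis) as the share of genes per bin of 0.05 (y axis, percent), for all 20807 genes and the 4363 with the start under H3K27me3 in all 3 genotypes; ticks and triangles below 0 show the 58 genes singly. Most of the 58 genes lie at 0.6 or above, and the 3 triangles of the starts not under H3K27me3 (Sox15, Sox4 and Sox12) fall within the range of the others.

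The first question was whether macrophages hold these genes under Polycomb marking, and whether the genotypes differ in it. The start lay under an H3K27me3 peak for 55 of the 58 genes in WT, 55 in mdx and 55 in mdxTLR4-/- cells, and these were the same 55 genes. Over all genes the share was 24.5% in WT, 24.7% in mdx and 23.6% in mdxTLR4-/- cells, and 21.0% in all 3. All 14 Nkx, 8 Lhx, 6 Irx, 6 Dlx and 6 Pou genes were covered in every genotype, and so were 15 of the 18 Sox genes. The start was under H3K27me3 in all 3 genotypes with no H3K27ac within 5 kb in any for 54 of the 58 genes, against 20.1% of all genes. Sox13 was the covered gene outside that count.

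Other developmental regulators gave high shares too. The start lay under H3K27me3 in all 3 genotypes for 33 of 39 Hox genes, which pattern the body axis, for 23 of 28 homeobox genes of other names, such as Barx1, and for 27 of 41 forkhead genes. Hhex, a homeobox gene used in blood progenitors, was among those not covered, and H3K27ac lay within 5 kb of its start in all 3 genotypes (29, 31 and 11 reads). Further lists held genes whose products work with the factors or place and remove the mark. Of 13 cofactors, among them the LIM-domain binding partners Ldb1 and Ldb2 and the Groucho-type corepressors Tle1 to Tle4, 2 had the start under H3K27me3 in all 3 genotypes (Lmo1 and Tle2), where 21.0% of all genes did, and 7 had H3K27ac within 5 kb in at least 1 genotype, where 39.6% of all genes did. Of 12 PRC2 subunits and H3K27 demethylases, 1 had the start under H3K27me3 (Epop), and 10 had H3K27ac in at least 1 genotype. Among the 10 was Ezh2, the main methyltransferase, with 7 H3K27ac reads in WT, no peak in mdx and 15 reads in mdxTLR4-/- BMDM. Kdm6b, a demethylase induced in activated macrophages, was another, with 84, 42 and 55 reads.

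**Figure D2:**
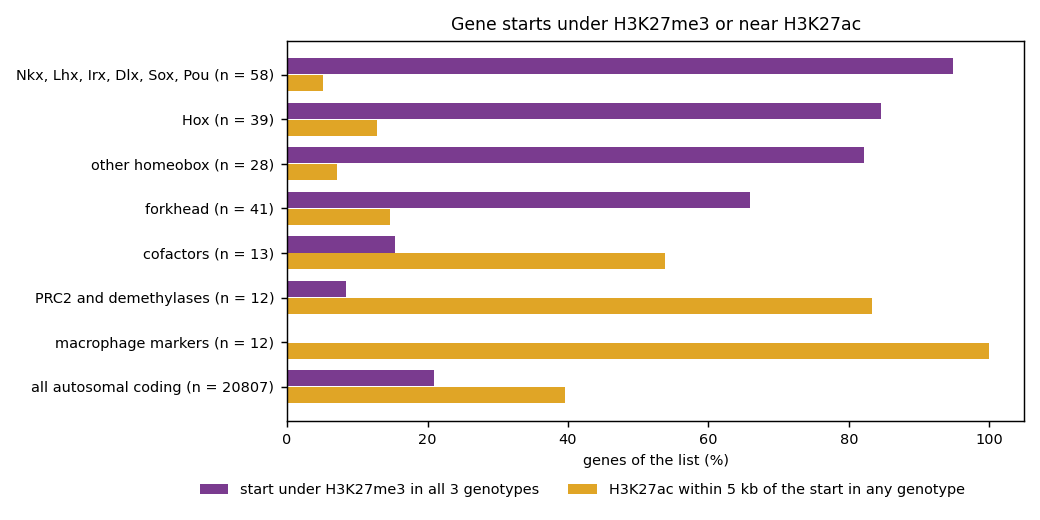
Share of each gene list (x axis, percent) with the start under H3K27me3 in all 3 genotypes and with an H3K27ac peak within 5 kb of the start in any genotype. Bars for the Nkx, Lhx, Irx, Dlx, Sox and Pou genes stand at 94.8% and 5.17%, for macrophage genes at 0% and 100%, and for all genes at 21.0% and 39.6%.

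Coverage of the whole gene was measured over a window from 5 kb upstream of the gene to 1 kb past its end, and a gene whose window was covered to 50% or more was called Increased. The study uses this word for read intensity over input, which was not computed here, so the calls need not match. In WT 51 of the 58 genes were Increased, in mdx 49 and in mdxTLR4-/- BMDM 51, against 17.5%, 17.1% and 15.6% of all genes. In all 3 genotypes 48 were Increased, against 14.7% of all genes. Median coverage over the 58 genes was 98.1%, 100% and 99.1%. Peaks covered the whole window of 28, 32 and 29 genes in the 3 genotypes (4.47%, 3.79% and 3.42% of all genes), and of 24 genes in all 3 (2.51% of all genes). The 10 genes that were not Increased in all 3 genotypes were 8 Sox genes, Lhx8 and Irx6.

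Among the Nkx genes, which specify the ventral forebrain, heart, spleen and pancreas among other organs, all 14 were Increased in every genotype, with coverage from 83.4% to 100% in WT. Nkx2-1, required for lung and thyroid, and Nkx2-5, a heart regulator, were covered at 100% in WT, mdx and mdxTLR4-/- BMDM. Nkx2-2, which acts in pancreatic and ventral neural cells, was covered at 95.4%, 99.8% and 95.4%. The lowest in WT was Nkx3-2, a regulator of the axial skeleton and spleen, at 83.4%, 100% and 91.1%.

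The 8 Lhx genes, LIM-homeobox regulators of neurons, kidney and pituitary, spanned 52.2% to 100% in WT. Lhx1, needed for head and kidney formation, Lhx2, which acts in forebrain, eye and hair follicle, Lhx5 and Lhx6 were covered at 100% in each genotype. Lhx8, a regulator of cholinergic neurons and oocytes, lay near the 50% limit, with 52.2% in WT, 60.1% in mdx and 48.3% in mdxTLR4-/- cells, so that it was Increased in the first 2. Coverage of Lhx9, which acts in the gonad and limb, was 77.6%, 82.3% and 72.1%.

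The Irx genes pattern heart, neural tube and limb. Irx3, tied to heart conduction and adipocyte biology, was covered at 100% in all genotypes. Irx6 was the low member of the family, with 31.6% in WT, 39.5% in mdx and 58.4% in mdxTLR4-/- cells, and with a start peak of 4.00 kb, 3.20 kb and 7.40 kb. The 6 Dlx genes, regulators of forebrain interneurons, jaw and limb that lie in convergent pairs, ranged from 89.3% (Dlx2) to 100% in WT. Dlx5, which acts in bone and jaw, had 91.4% in WT, 95.3% in mdx and 70.0% in mdxTLR4-/- cells.

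The Pou3f genes act in neurons and glia, and the Pou4f genes in sensory neurons. All 6 were Increased in every genotype. Pou4f1 stood at 100% throughout, Pou4f2, a regulator of retinal ganglion cells, at 79.3%, 100% and 100%, and Pou4f3, required for inner ear hair cells, at 71.7%, 90.1% and 70.2%. Pou3f2, which promotes neuronal fate, had 100% in WT and mdx and 77.4% in mdxTLR4-/- BMDM.

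The Sox genes were the most varied of the families. The SoxB1 genes Sox1 and Sox2, regulators of neural progenitors and, for Sox2, of pluripotency, and the SoxE genes Sox8, Sox9 and Sox10, which act in neural crest, cartilage and gonad, were Increased in each genotype. So were the SoxB2 genes Sox14 and Sox21 and the SoxF genes Sox7, Sox17 and Sox18, which act in endothelium and endoderm. None of the 3 SoxC genes, which act in progenitors of neurons and mesenchyme, was Increased in all 3. Sox11 was covered at 41.9%, 46.1% and 40.5%, with the start under a peak of 6.00 kb, 6.60 kb and 5.80 kb. None of the 3 SoxD genes was Increased in all 3 either. Sox5 and Sox6, regulators of cartilage, are long genes of 954 kb and 568 kb, and their coverage was 1.81%, 1.42% and 1.71% for Sox5 and 3.00%, 3.83% and 2.47% for Sox6. Their starts were covered nevertheless, by a peak of 5.60 kb in each genotype at Sox5 and of 17.2 kb, 17.2 kb and 13.2 kb at Sox6. The start peak of Sox6 also covers the start of 1110004F10Rik, 0.601 kb away. Low window coverage and a marked start thus occurred together in these genes.

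**Figure D3:**
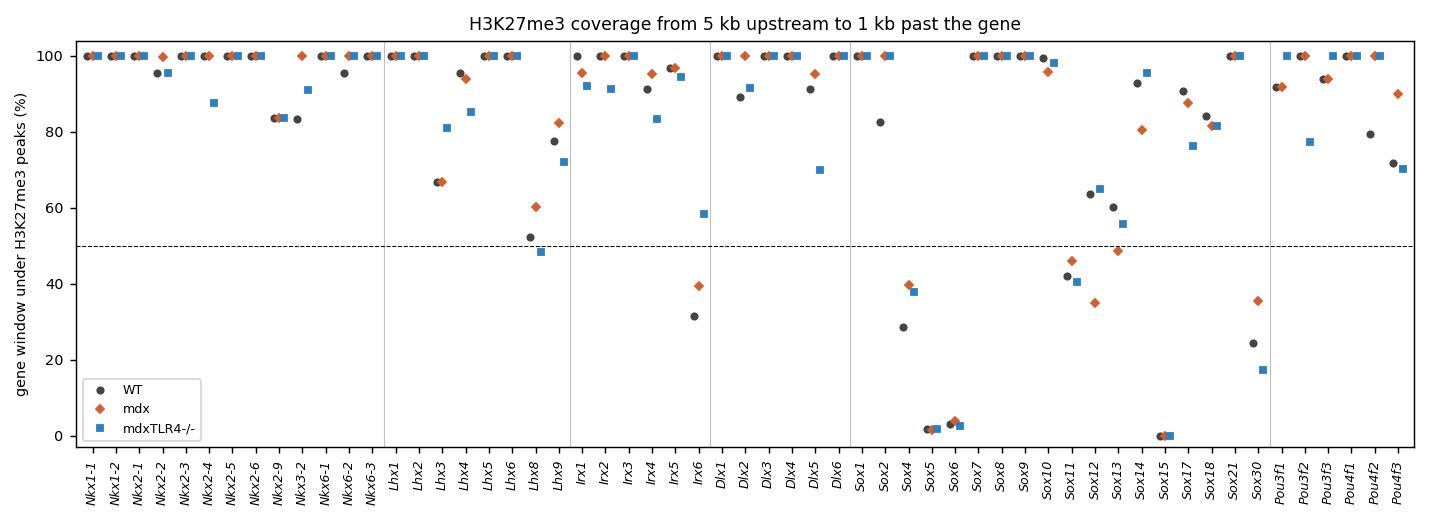
Share of the gene window under H3K27me3 peaks (y axis, percent) for 57 of the genes in WT, mdx and mdxTLR4-/- BMDM, 1 symbol per peak list, with the dashed line at 50%. All values of the Nkx, Dlx and Pou genes lie above the line, and the low values belong to Sox genes, Irx6 and, in mdxTLR4-/- BMDM, Lhx8.

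The 3 starts not under H3K27me3 differed from each other. Sox4 (chr13:28948919-28953713), a SoxC gene active in many progenitors and in lymphocytes, had peaks beyond the start, over its body from 1.31 to 3.51 kb downstream in WT, 0.713 to 4.11 kb in mdx and 0.913 to 4.11 kb in mdxTLR4-/- BMDM. Those peaks held 90, 133 and 118 reads, and a further peak began 4.91 kb downstream in each genotype. Coverage of its window was 28.6%, 39.7% and 37.8%.

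Sox12, the third SoxC gene, had peaks on both sides of a bare start. The downstream peak began 0.463 kb from the start in WT and 1.06 kb from it in mdx and mdxTLR4-/- BMDM, with 131, 144 and 107 reads. The upstream peak ended 2.74 kb before the start in WT (135 reads), 4.94 kb before it in mdx (66 reads) and 0.338 kb before it in mdxTLR4-/- BMDM (61 reads). Its coverage was 63.7%, 35.0% and 65.1%, and in mdx the upstream peak ended just inside the outer edge of the window, lying almost wholly beyond it. Sox15, the only SoxG gene, which is known from placenta and muscle progenitors, had no H3K27me3 peak in its window in any genotype.

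H3K27ac was rare at the starts of the 58 genes. A peak lay within 5 kb of the start for 1 gene in WT, 0 in mdx and 2 in mdxTLR4-/- cells, against 32.9%, 28.3% and 30.4% of all genes, and for 3 in any genotype, against 39.6%. No gene had it in more than 1 genotype. Among genes with the start under H3K27me3, H3K27ac lay within 5 kb for 0 of 55, 0 of 55 and 1 of 55 of these genes, and for 3.79%, 2.26% and 2.37% of all such genes, so that the low count is shared by covered starts in general. The nearest H3K27ac peak was a median of 76.4 kb, 116 kb and 133 kb from the start of the 58 genes, and 24.5 kb, 34.1 kb and 31.3 kb over all genes. Over the whole gene windows, H3K27ac peaks were found further inside the long genes Sox5 (1, 2 and 2 peaks) and Sox6 (2, 1 and 2 peaks) in each genotype. They held 5 to 14 reads, the nearest to a start being 309 kb downstream of that of Sox6.

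All 3 H3K27ac peaks were thin. The WT peak at Sox15 held 8 reads over 2.00 kb, from 1.11 kb upstream to 0.886 kb downstream of the start, and in mdx and mdxTLR4-/- BMDM the nearest peak lay 6.89 kb and 6.49 kb away. Sox15 lies 10.8 kb from the start of Cd68, a macrophage gene with 78, 37 and 38 H3K27ac reads within 5 kb of its start, and 7.33 kb from that of Mpdu1, with 57, 37 and 24 reads. Whether the peak belongs to Sox15 or to its neighbours was not tested. The peak at Sox4 in mdxTLR4-/- BMDM held 7 reads and ran from 2.11 to 4.51 kb downstream, overlapping the H3K27me3 peak there. The peak at Sox13, a SoxD gene expressed in some T cells, held 5 reads in mdxTLR4-/- BMDM, 3.42 to 4.22 kb upstream of the start and inside the 22.0 kb H3K27me3 start peak. With 5 reads the least any H3K27ac peak held, the difference between 1, 0 and 2 genes was not resolvable at this depth.

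The H3K27me3 peaks over these starts were longer than those over gene starts in general, and shorter than those of Hox genes. The 55 covered starts lay under 51 distinct peaks in each genotype, since 4 pairs of genes shared a peak, among them Dlx1 and Dlx2, Dlx3 and Dlx4, and Dlx5 and Dlx6. These pairs are therefore not independent values. The median start peak, over the 55 genes, was 25.4 kb in WT, 27.6 kb in mdx and 24.4 kb in mdxTLR4-/- BMDM, and over all genes with a start peak 12.6 kb, 10.8 kb and 10.0 kb. Hox genes had longer ones, with medians of 96.8 kb, 66.0 kb and 90.7 kb, and so had homeobox genes of other names, with 32.8 kb, 32.1 kb and 29.8 kb. The medians of forkhead genes were 23.4 kb, 21.0 kb and 20.6 kb. A start peak longer than the median of all genes was found for 45, 49 and 47 of the 55. From the start, the peaks reached a median of 7.34 kb upstream and 17.0 kb downstream in WT, and 7.60 and 14.0 kb in mdx and 6.91 and 15.0 kb in mdxTLR4-/- BMDM. They extended at least 2 kb to both sides for 47, 49 and 47 of the 55, against 66.5%, 61.7% and 60.01% of all genes with a start peak.

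**Figure D4:**
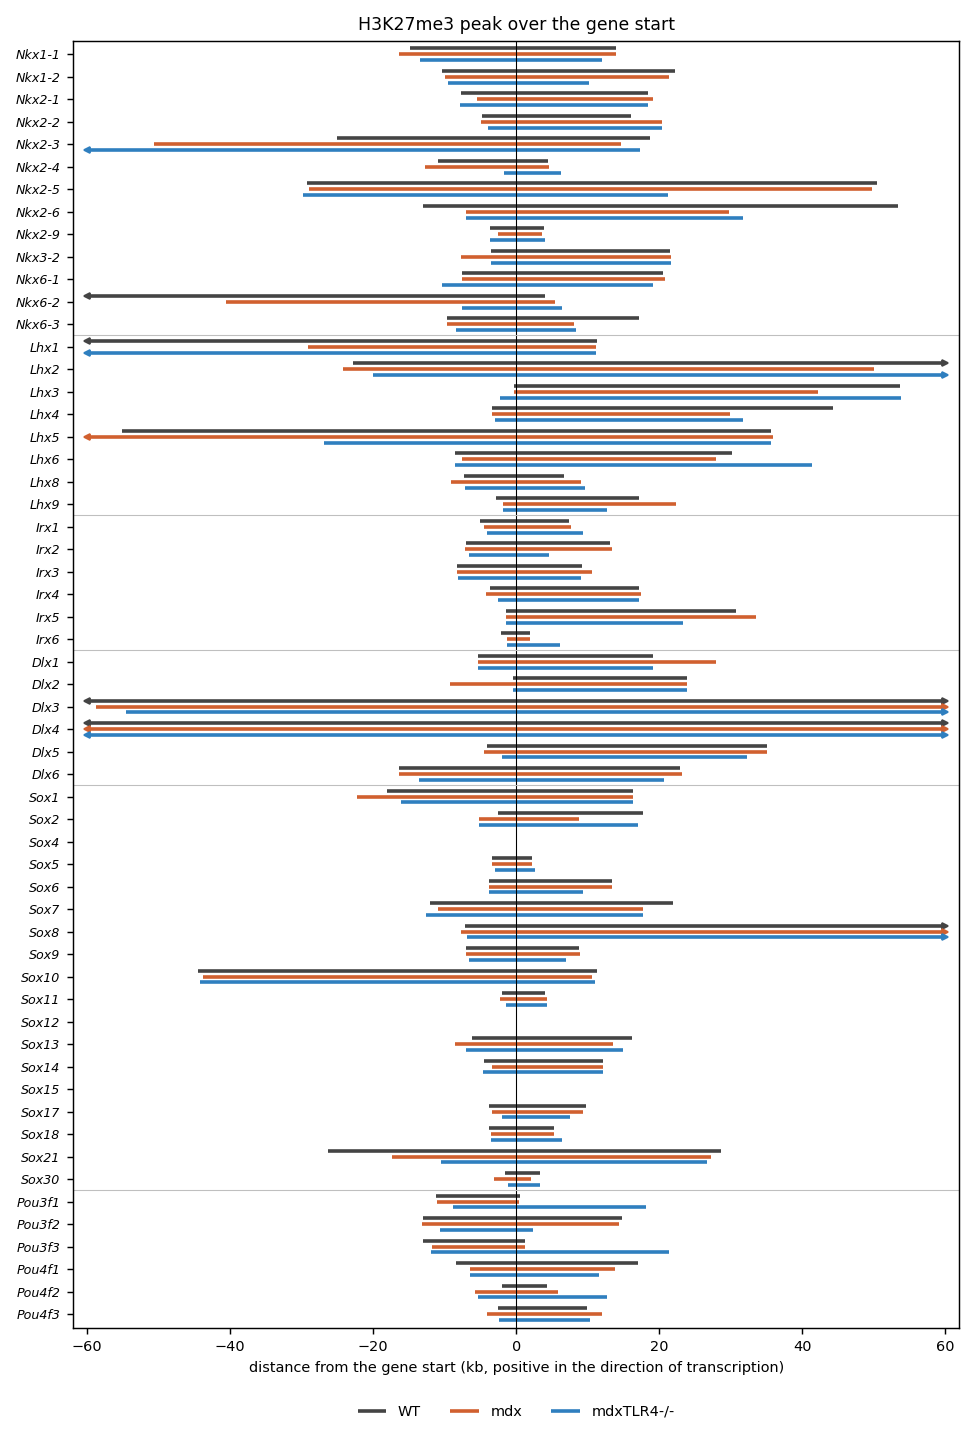
Extent of the H3K27me3 peak over the start of 57 of the genes (x axis, kb from the start, positive in the direction of transcription) in WT, mdx and mdxTLR4-/- BMDM; arrowheads mark peaks that run beyond 60 kb, and Sox4, Sox12 and Sox15 have no line. Of the 55 genes with such a peak, the longest over the genotypes was a median of 1.36 times the shortest, and at least 2 times in 9 genes (16.4%, against 32.7% and a median of 1.58 over the 4363 genes covered in all 3), among them Lhx1, which is shortest in mdx, and Nkx6-2, which is shortest in mdxTLR4-/- BMDM.

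The longest start peaks among the 58 genes in WT were those of Sox8, Lhx1, the pair Dlx3 and Dlx4, and Lhx2. The Sox8 peak (chr17:25276801-25577800 in WT) measured 301 kb in WT, 289.8 kb in mdx and 295.4 kb in mdxTLR4-/- BMDM. It was the longest start peak over any protein-coding autosomal gene in the WT and mdxTLR4-/- lists, and ran from Sox8 over 9 other gene starts, among them Cacna1h, a calcium channel gene, Sstr5, a somatostatin receptor gene, and the mast cell tryptase genes Tpsab1 and Tpsb2. The mark there is thus shared with genes of other kinds. The Dlx3 and Dlx4 peak measured 209.4 kb, 145.8 kb and 172 kb and held the start of 1 further gene, Itga3, an integrin gene. Dlx3 acts in skin, hair and teeth.

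Lhx1 showed how a domain can differ in length with nearly the same ground covered. Its start peak measured 215 kb in WT (chr11:84514201-84729200), 40.2 kb in mdx and 226.6 kb in mdxTLR4-/- BMDM. In mdx 4 peaks met the WT domain and together covered 98.8% of it. In mdxTLR4-/- BMDM 1 peak covered 99.9% of it. The Lhx2 peak measured 101 kb, 74.4 kb and 108.2 kb. Nkx2-3, a regulator of gut and spleen vasculature, went from 43.8 kb in WT to 65.4 kb in mdx and 98.0 kb in mdxTLR4-/- BMDM. Upstream its peak reached 25.1 kb, 50.7 kb and 80.7 kb before the start, and downstream 18.7 kb, 14.7 kb and 17.3 kb.

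Over the 51 WT start peaks of these genes, a median of 97.8% of the length lay under mdx peaks and 94.2% under mdxTLR4-/- peaks, with lowest values of 79.2% (Sox30) and 70.6% (Sox17). None of the 51 was without a peak in the other genotypes. Over the 4404 WT peaks that cover any gene start the medians were 92.8% and 89.0%, and 75 and 157 of them met no peak. Start peaks of these genes were longer than those over all genes, so WT start peaks of 50 kb or more were also compared. There the medians were 97.5% in mdx and 98.9% in mdxTLR4-/- BMDM for these genes, and 97.5% and 96.7% over all genes. None of these long peaks, in either set, was without a peak in the other genotypes. More than 1 peak met 17 of the 51 in mdx and 22 of the 51 in mdxTLR4-/- BMDM (33.3% and 43.1%), against 31.5% and 36.1% of the 4404. Among the 11 WT start peaks of 50 kb or more of these genes, 8 (72.7%) were met by more than 1 peak in each of the other genotypes, against 66.3% in mdx and 76.7% in mdxTLR4-/- BMDM over all 326 WT start peaks of that length.

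Read density, as ChIP reads per kb, reflects the mark within a peak together with library depth, which is unknown. In the start peaks the median over the 55 genes was 52.9 reads per kb in WT, 66.7 in mdx and 53.5 in mdxTLR4-/- cells, and over all genes with a start peak 36.9, 44.4 and 37.0. Hox genes had higher medians (70.0, 82.7 and 69.3 reads per kb), homeobox genes of other names had 57.9, 67.3 and 59.7, and forkhead genes had 47.8, 60.2 and 49.7. The upper quartile of all genes was exceeded by 38, 46 and 39 of the 55. The densest were Lhx1 (76.4, 101 and 73.2 reads per kb) and Irx3 (75.8, 88.1 and 74.9) in WT, Lhx1 and Sox14 (92.1 reads per kb) in mdx, and Nkx6-2 (75.7) and Irx3 in mdxTLR4-/- BMDM. At the low end stood Sox30, a gene of the male germ line (28.8, 35.0 and 28.4), Nkx2-4 (28.9, 41.8 and 29.4) and Sox11 (30.8, 36.7 and 30.7). These 3 were the least dense of the 55 in each genotype.

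**Figure D5:**
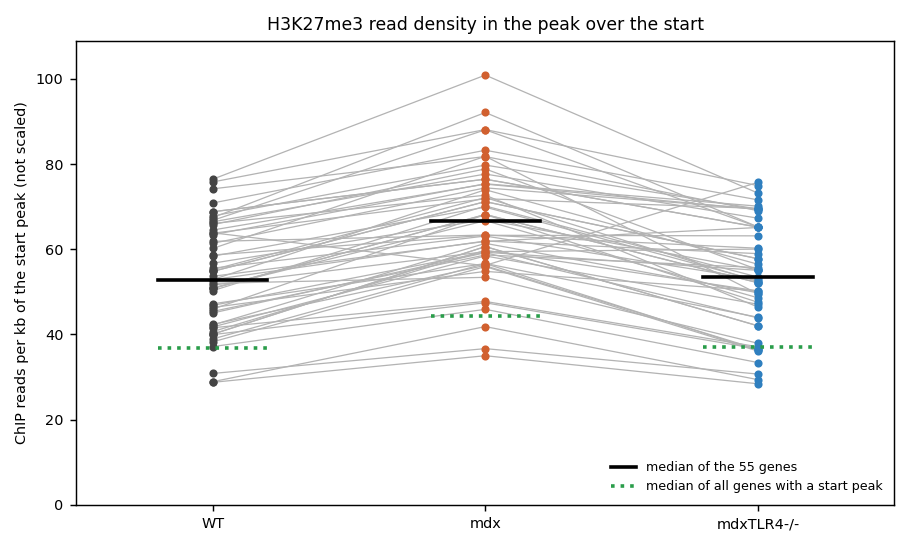
H3K27me3 reads per kb of the peak over the start (y axis, not scaled for depth) for the 55 genes with a start peak, joined by gene over the 3 peak lists; black bars are their medians (52.9, 66.7 and 53.5) and green dotted bars those of all genes with a start peak (36.9, 44.4 and 37.0). Both medians are highest in mdx BMDM.

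The genotypes were compared as 1 list against another, and the 3 comparisons share lists, so they are given side by side. From WT to mdx, coverage was lower by 10 percentage points or more for 3 of the 58 genes and higher for 7, against 5.79% and 5.04% of all genes, and it was identical for 33, against 60.3%. From mdx to mdxTLR4-/- BMDM it was lower for 9 and higher for 4, against 8.03% and 2.60%, and it was identical for 30, against 59.9%. From WT to mdxTLR4-/- BMDM it was lower for 5 and higher for 4, against 8.82% and 2.67%, and identical for 27, against 61.3%. The median change over the 58 genes was 0 in each comparison. Since a gene without the mark cannot lose it, the shares were also taken among genes with at least 50% coverage in the first list. There, 3 of 51 were lower from WT to mdx, 8 of 49 from mdx to mdxTLR4-/- and 5 of 51 from WT to mdxTLR4-/- BMDM, against 20.0%, 24.5% and 29.8% of all such genes. Higher values were found for 5, 2 and 3 of them, against 7.16%, 5.16% and 3.30%. Coverage was identical for 32, 29 and 26 of them, against 21.7%, 19.8% and 20.3%, and a window that is wholly covered in both lists counts as identical whatever lies outside it.

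From WT to mdx the largest falls were at Sox12 (28.7 points), Sox14 (12.4 points) and Sox13 (11.6 points). The largest rises were at Pou4f2 (20.7 points), Pou4f3 (18.4 points) and Sox2 (17.4 points). At Pou4f2 the start peak measured 6.20 kb in WT, 11.6 kb in mdx and 18.0 kb in mdxTLR4-/- BMDM, while its density was 63.9, 56.1 and 36.5 reads per kb. Its longer peaks were thus less dense. At Sox2 the peak reached 2.60 kb upstream in WT and 5.20 kb in both other genotypes. Downstream it reached 17.8 kb in WT, 8.8 kb in mdx and 17.0 kb in mdxTLR4-/- BMDM. Its whole length was 20.4 kb, 14.0 kb and 22.2 kb, so it was shortest in mdx.

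From mdx to mdxTLR4-/- BMDM the largest falls were at Dlx5 (25.3 points), Pou3f2 (22.6 points) and Pou4f3 (20.0 points), and the largest rises at Sox12 (30.0 points), Irx6 (18.9 points) and Sox14 (14.9 points). Sox12, Sox14 and Pou4f3 thus changed in opposite directions in the comparisons on either side of the mdx list. In mdxTLR4-/- BMDM they stood 1.31 and 2.48 points above and 1.58 points below WT. They were picked for large changes against the same mdx list, and the share of all genes with such a reversal was not taken. The start peak of Pou3f2 measured 27.8 kb in WT, 27.6 kb in mdx and 13.0 kb in mdxTLR4-/- BMDM. From WT to mdxTLR4-/- BMDM the largest falls were at Pou3f2 (22.6 points), Dlx5 (21.4 points) and Sox17 (14.5 points), an endoderm and arterial regulator with 90.7%, 87.5% and 76.2% coverage. The largest rises were at Irx6 (26.8 points), Pou4f2 (20.7 points) and Sox2 (17.4 points).

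Density differed between lists about as it did over all genes. The window density of mdx over WT BMDM had a median log2 ratio of 0.33 over 57 genes with a peak in both, and 0.27 over all genes. The medians were -0.31 and -0.30 for mdxTLR4-/- over mdx, and 0.01 and -0.04 for mdxTLR4-/- over WT BMDM. Relative to all genes the median of these genes was 0.06 (95% interval over genes -0.01 to 0.12), -0.01 (-0.11 to 0.03) and 0.04 (-0.01 to 0.09), on the log2 scale. No gene was 1.5-fold above or below the median ratio of all genes from WT to mdx (1.18% and 1.54% of all genes were). Nkx6-2, which acts in oligodendrocytes and motor neurons, was above it in the other 2 comparisons, where 2.00% and 1.69% of all genes were, and no gene was below it (1.33% and 1.95%). Its relative density ratio was 1.66 (95% counting interval 1.54 to 1.78) for mdxTLR4-/- over mdx and 1.83 (1.71 to 1.97) over WT BMDM. Its start peak measured 66.8 kb in WT, 46.0 kb in mdx and 14.0 kb in mdxTLR4-/- BMDM, where 9 peaks met the WT domain and covered 89.5% of it. The density there is thus that of a shorter stretch around the start, and whether the mark itself differed was not tested.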

How the data were processed

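The samples were 18 by the labels: 11 ChIP and 7 input libraries of BMDM of 3 genotypes. Per the paper's methods, the authors aligned reads to mm10 with Bowtie2, merged replicates and called peaks with SICER2 (window 200 bp, gap 600 bp, FDR below 0.01). The submitters' processing notes name cutadapt 1.15, Bowtie2 2.3.4 and SICER 2.0. The deposited values are read counts per peak, unscaled and without input subtraction.

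Peaks were set against GENCODE vM21 genes with at least 1 bp of overlap. H3K27me3 coverage used the gene with 5 kb upstream and 1 kb downstream, and H3K27ac used 5 kb on either side of the start. Density was the reads of the touched peaks per kb of their length. Intervals are at the 95% level, exact Clopper-Pearson for counts and order-statistic for medians, and cover counting error or spread over genes only. No test across genotypes was possible. Promoters were taken from RefSeq (GRCm38.p6), and CG counts from that genome.

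Genes given in full were, in each comparison, the 3 largest falls and 3 largest rises of coverage, the 5 longest WT start peaks, starts under no H3K27me3 peak, and genes with H3K27ac. Results for 2 genes are not reported here by name. Others were named as examples of their family or for a value after it was seen. Members and lists were chosen with earlier results of these data known. Alternatives were the peaks counted, the window, the limit for coverage and the scaling of lists. Window measurements were tested on simulated data. Python 3.11.15, numpy 2.4.6, pandas 2.3.3, scipy 1.17.1, pysam 0.24.0 and matplotlib 3.10.9 were used.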

Additional observations from a re-analysis of the deposited data

How the results depend on the processing

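Under the alternatives, 84 values stayed within 1.5 times the count or within the interval over genes, and 21 moved. The counts of genes Increased for H3K27me3 and the median coverage changes were among the former under each alternative run, which included only peaks of at least 2 kb, denser peaks, equal numbers of peaks and 2.5 kb around the start. Joining peaks up to 600 bp apart changed nothing, since the lists hold none that close. With 20 points in place of 10, lower and higher coverage was found for 1 and 1 gene from WT to mdx (2.05% and 1.85% of all genes), 2 and 1 from mdx to mdxTLR4-/- (2.87% and 0.798%), and 2 and 2 from WT to mdxTLR4-/- BMDM (3.47% and 0.966%). Within 2.5 kb of the start, 4 genes were higher from WT to mdx (6.93% of all genes) and 5 lower from mdx to mdxTLR4-/- BMDM (9.40%). With equal numbers of peaks, 4 genes were lower and 6 higher from WT to mdx, against 9.54% and 2.35% of all genes. From mdx to mdxTLR4-/- BMDM 9 were lower and 3 higher (5.64% and 3.06%), and from WT to mdxTLR4-/- BMDM 7 and 4 (11.7% and 1.65%). The shares over all genes thus depend on the number of peaks counted.

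The median log2 density ratio of mdx over WT, relative to all genes, was 0.06 for the window and -0.0069 for the start peak alone, and the unscaled window ratio was 0.33. For mdxTLR4-/- over mdx it was -0.31 unscaled, 0.16 when scaled to 1000000 reads in peaks, and 0.037 when set against the 1st percentile of each list's density, so that its sign depends on the scaling. For mdxTLR4-/- over WT it was 0.18 and 0.14 under the latter pair of scalings and above 0 under each scaling run. With at least 10 reads, no gene had an H3K27ac peak (0 in WT, 0 in mdxTLR4-/- BMDM). With equal numbers of peaks from each list, the 1 WT gene, Sox15, lost its call (0 genes), and mdxTLR4-/- BMDM had 2. In mdxTLR4-/- BMDM the count was 1 for the upstream 5 kb, 0 within 1 kb, and 1 for denser peaks. No replicate could be left out and no paired analysis was possible because the authors called peaks on merged replicates. Depth is unknown, and H3K27ac peaks of few reads limit what can be seen at single genes.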

Other observations

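The same symbols also name 18 autosomal genes that do not code for protein, most of them antisense or overlapping transcripts of the coding genes. The start of 10 of them lay under H3K27me3 in all 3 genotypes and that of 6 in none, and none had H3K27ac within 5 kb in any genotype. The shares over all autosomal non-coding genes are not given here, so whether these counts differ from them was not tested. Dlx4os, Irx3os, Lhx1os and Dlx6os2 were covered over 100% of their window in each genotype, as were the coding genes Dlx4, Irx3, Lhx1 and Dlx6 beside them. The 6 starts under no peak were the transcripts named for Sox5, namely Sox5it and Sox5os1 to Sox5os5, which lie along that long gene and away from its marked start. The start of Sox2ot, the long transcript that overlaps Sox2, was under H3K27me3 in mdx and not in WT or mdxTLR4-/- BMDM. The start of a short RNA annotated as Nkx2-2os was covered in WT (31.0% of its window) and not in mdx or mdxTLR4-/- BMDM.

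On the X chromosome, which the choice of genes left out, the SoxB1 gene Sox3 had its start under H3K27me3 in each genotype, with 72.3%, 52.5% and 80.2% of its window covered in WT, mdx and mdxTLR4-/- BMDM. Pou3f4, a gene of the inner ear and brain, had no H3K27me3 peak in its window in any genotype, unlike the autosomal Pou3f1, Pou3f2 and Pou3f3.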
